A study of Homo sapiens with 6 samples.

Results

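The genes examined were 36 markers of cell identity, 20 of endothelial cells and 16 of hepatocytes, in SK-Hep1 cells given an inhibitor of miR-21 or mock treatment. Members were all probe sets that the platform annotation assigns to these symbols alone, with no filter on level. This gave 91 of 54613 probe sets, 50 for the endothelial and 41 for the hepatocyte genes, and each of the 36 genes had at least 1. No probe set listed a member beside another gene. SK-Hep1 is an established human line derived from a liver adenocarcinoma. One group of 3 arrays came from cells given lipid reagent without oligonucleotide (mock, described as PBS in the study's design). The other group of 3 came from cells transfected with 20 nM of anti-miR-21, an oligonucleotide directed against miR-21. Cells had been plated 24 hours before transfection, and RNA was taken 16 hours after it. Both groups are the same line, so the line has no normal endothelial or hepatocyte sample beside it here. The labels name total RNA but the collection protocol cites an Argonaute immunoprecipitation procedure, and which of these was put on the arrays is not settled. Replicates are labelled as biological without saying whether they came from separate cultures, so p-values reflect only the spread among these arrays.

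Endothelial cells line blood and lymph vessels. They are known by adhesion molecules at their junctions, by receptors for vascular growth factors and angiopoietins, and by ETS family transcription factors that act at many vascular genes. Hepatocytes are the secretory and metabolic cells of the liver. They make most plasma proteins, run the urea cycle and drug metabolism, and depend on liver-enriched transcription factors such as those of the FOXA family. SK-Hep1 is widely used as a liver cancer line, while others have described it as endothelial in origin. The level of these genes therefore asks which identity the line shows in culture. The comparison of the groups asks whether these levels differed with anti-miR-21. No group was given a control oligonucleotide, so inhibition of miR-21 and delivery of any oligonucleotide cannot be told apart here. The mature microRNA that the oligonucleotide is directed against is shown first, with its seed (bases 2 to 8) in capitals, because it defines the treatment. The arrays do not measure it.
hsa-miR-21-5p (GRCh38.p14, chr17:59841273-59841294, plus strand): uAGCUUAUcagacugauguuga

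The values are log2 expression from GCRMA, a method that corrects background with probe sequence and leaves weak probe sets near a shared low value. A mean of 4 over the 6 arrays was used as the lowest level at which a probe set was tested. Array medians lay between 3.02 and 3.16, and 22277 to 22591 probe sets per array were at 4 or above. Probe sets differ in how well they bind their target, so the order of levels below is an order of signal and not of transcript copies. A low signal also does not show that a gene was off, since 1 probe set can fail. In a bulk sample, fewer cells of a type and less RNA per cell cannot be told apart.

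Neither identity was shown as a whole. In mock cells, 4 of 20 endothelial genes and 3 of 16 hepatocyte genes had their brightest probe set at 6 or above, and these were ENG, FLI1, ROBO4 and EGFL7 in the first list and KRT18, KRT8 and SERPINA1 in the second. A further 2 genes in each list lay between 4 and 6. The remaining 14 endothelial and 11 hepatocyte genes had every probe set under 4. Among all 19775 genes with a probe set of their own, 54.8% had a brightest probe set at 4 or above, against 30.0% of the endothelial and 31.2% of the hepatocyte genes. At 6 or above the shares were 49.4%, 20.0% and 18.8%, in the same order. A list of 28 measured genes from unrelated tissues (retina, pancreas, testis, heart, brain and others), used as a reference for background, had 14.3% at 4 or above.

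**Figure D1:**
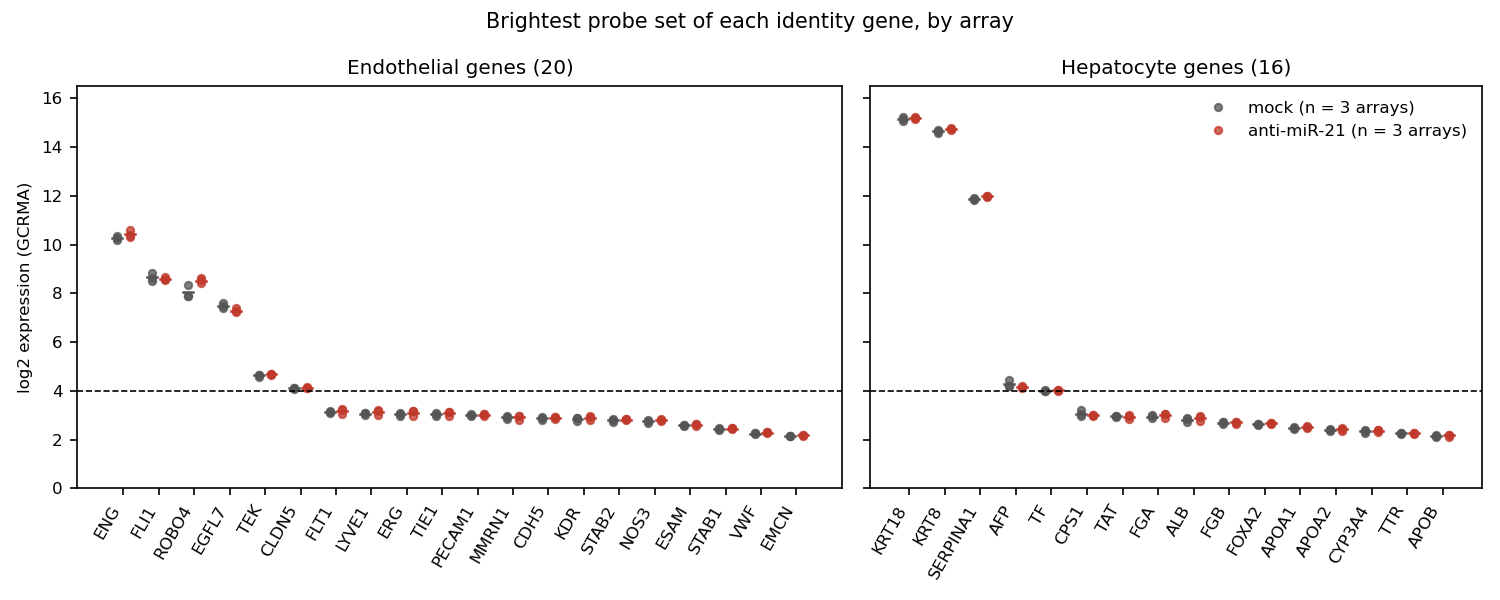
Log2 expression of the brightest probe set of each endothelial (left) and hepatocyte (right) gene, ordered by mock mean. Points are single arrays, short bars are means of 3 arrays, grey is mock, red is anti-miR-21, and the dashed line marks 4. In each panel a few genes stand well above the line (ENG at 10.28, KRT18 at 15.15) and most lie between 2 and 4.

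Among the endothelial genes, the brightest was ENG, which encodes endoglin, a co-receptor for TGF-β family ligands that is abundant on endothelium and also found on mesenchymal cells. Its brighter probe set read 10.27, 10.19 and 10.37 in the mock arrays and 10.30, 10.40 and 10.61 with anti-miR-21. The mock mean of 10.28 ± 0.09 (SD, n = 3) was above 86.7% of all probe sets. The groups overlapped. The second ENG probe set was lower, at 7.11, 7.08 and 7.29 in mock and 7.16, 7.45 and 7.28 with anti-miR-21, and again the groups overlapped.

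FLI1 encodes an ETS family transcription factor of endothelial and blood cells. Its brightest probe set read 8.83, 8.61 and 8.51 in mock and 8.55, 8.60 and 8.67 with anti-miR-21, with the highest and lowest values both in mock. A pair of further FLI1 probe sets lay at 7.54 ± 0.01 and 7.16 ± 0.10 (SD, n = 3) in mock. The other 3 stayed between 1.87 and 2.26, so only 3 of the 6 probe sets of this gene gave signal. ERG, the closest relative of FLI1 in the list and a factor needed for vascular junctions, had 4 probe sets, and the brightest was at 3.04 ± 0.06 (SD, n = 3).

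ROBO4 encodes a receptor of the roundabout family that stabilises vessels and is largely restricted to endothelium. Its brighter probe set read 7.90, 7.90 and 8.35 in the mock arrays and 8.62, 8.53 and 8.42 with anti-miR-21. All 3 anti-miR-21 arrays lay above all 3 mock arrays, and mock replicate 3 lay closest to them. The second ROBO4 probe set stayed at 3.90 ± 0.02 in mock and 3.90 ± 0.02 with anti-miR-21 (SD, n = 3). EGFL7 encodes a protein secreted by endothelial cells into their matrix. Its only probe set read 7.47, 7.39 and 7.59 in mock and 7.26, 7.40 and 7.23 with anti-miR-21, where the highest treated array lay just above the lowest mock array.

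TEK, the angiopoietin receptor Tie2, and CLDN5, a tight junction claudin, were the genes between 4 and 6. The brighter TEK probe set was at 4.64 ± 0.04 and that of CLDN5 at 4.10 ± 0.01 (SD, n = 3) in mock, while the other TEK probe set stayed at 2.24. Genes under 4 in every probe set included the defining surface and secreted molecules of the lineage. At the junctions these were PECAM1 (5 probe sets, brightest 3.01), the cadherin CDH5 (2.87) and the adhesion molecule ESAM (2.58). Among receptor kinases they were the VEGF receptors KDR (2.85) and FLT1 (6 probe sets, brightest 3.14) and the Tie2 partner TIE1 (3.03). The clotting factor carrier VWF was at 2.25, the sialomucin EMCN at 2.15, the nitric oxide synthase NOS3 at 2.76 and the platelet and endothelial protein MMRN1 at 2.91. The scavenger and hyaluronan receptors of sinusoidal and lymphatic endothelium, STAB1, STAB2 and LYVE1, were at 2.44, 2.79 and 3.07.

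Among the hepatocyte genes, the highest signals came from KRT18 and KRT8, the paired keratins of simple epithelia, which hepatocytes share with bile duct and other glandular epithelium. KRT18 read 15.05, 15.15 and 15.25 in mock and 15.21, 15.15 and 15.20 with anti-miR-21. KRT8 read 14.67, 14.59 and 14.70 in mock and 14.68, 14.73 and 14.77 with anti-miR-21. In both genes the groups overlapped, and the mock means exceeded 99.7% and 99.4% of all probe sets. Each was measured by 1 probe set of a type that can bind related sequences, and both genes have many processed copies in the genome, so the share of signal from such copies is unknown.

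SERPINA1, which encodes the protease inhibitor alpha-1-antitrypsin, was the 1 secreted liver protein of the list with high signal. Its brightest probe set read 11.86, 11.82 and 11.93 in mock and 11.94, 11.98 and 11.99 with anti-miR-21. The next read 11.43, 11.36 and 11.29 in mock and 11.50, 11.45 and 11.52 with anti-miR-21. In both probe sets every anti-miR-21 array was above every mock array, by small margins. The other 2 SERPINA1 probe sets stayed near 2.1. The gene is also made outside the liver, for example in monocytes and some epithelia, from a start upstream of the one used in hepatocytes.

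Other plasma proteins had no probe set far from background. ALB, the albumin gene and the most abundant product of hepatocytes, had 4 probe sets, and the brightest read 2.87, 2.84 and 2.74 in mock and 2.75, 2.92 and 2.97 with anti-miR-21. AFP, the fetal counterpart of albumin, read 4.18, 4.22 and 4.43 in mock and 4.13, 4.15 and 4.18 with anti-miR-21. The brightest probe set of the iron carrier TF was at 4.01 ± 0.03 (SD, n = 3) in mock, and its other 3 lay between 2.13 and 3.22. The apolipoproteins APOA1, APOA2 and APOB were at 2.48, 2.40 and 2.15, the thyroxine carrier TTR at 2.26, and the fibrinogen chains FGA and FGB at 2.95 and 2.69. The enzymes of hepatocyte metabolism were as low, with the urea cycle enzyme CPS1 at 3.07, the tyrosine aminotransferase TAT at 2.96 and the drug-metabolising cytochrome CYP3A4 at 2.35. FOXA2, a pioneer transcription factor of endoderm and liver, had its brightest probe set at 2.64.

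**Figure D2:**
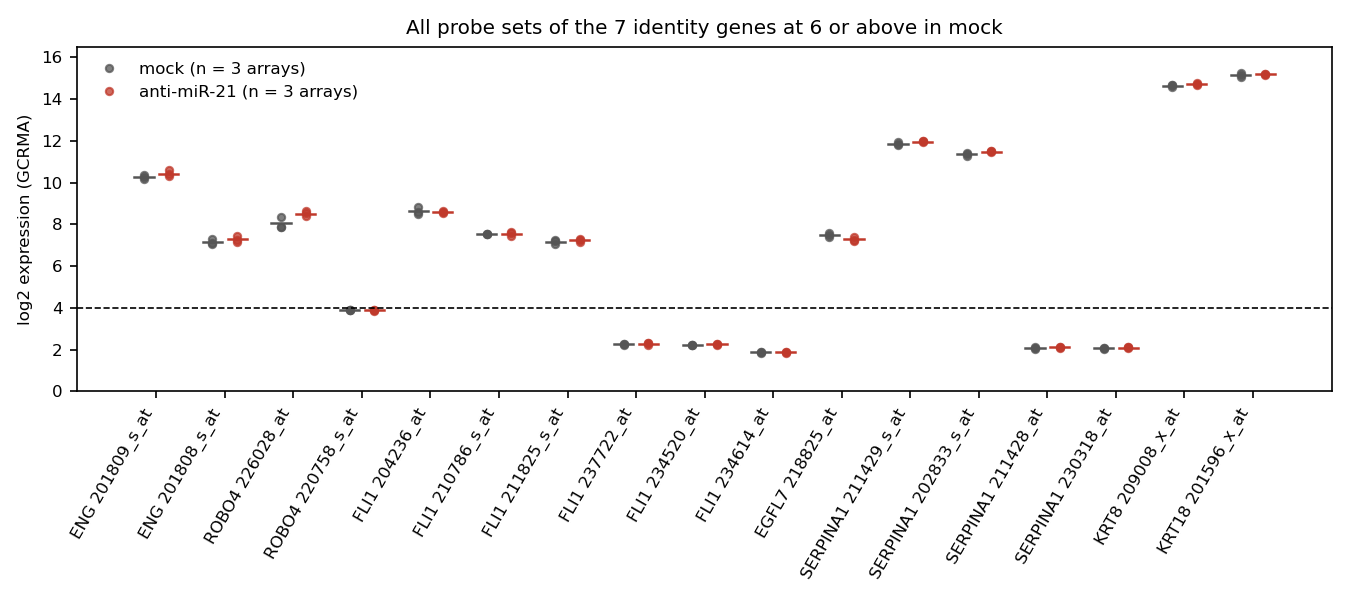
Log2 expression of every probe set of the 7 members at 6 or above in mock, with points for single arrays, short bars for means of 3 arrays, grey for mock and red for anti-miR-21. FLI1, ROBO4 and SERPINA1 each have probe sets on both sides of the dashed line at 4, and only the brighter ROBO4 probe set shows groups visibly apart.

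There were 3 pairs of members that lie next to each other among protein-coding genes in the RefSeq table. KRT8 and KRT18, on chromosome 12, were both high (14.65 and 15.15 in mock). ALB and AFP, on chromosome 4, were at 2.82 and 4.28, and FGB and FGA, on the same chromosome, at 2.69 and 2.95.

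The sequence upstream of the start was examined for members with a RefSeq window, which 23 of 36 had. The 250 bases before each annotated start were searched on both strands for GGAA, the core of ETS factor sites, because FLI1 and other ETS factors were detected. It occurred in 19 of 20 windows of endothelial members (95%), in 15 of 15 windows of hepatocyte members and in 92.7% of all 35116 windows, so the share in the members was close to that of any gene. The windows of ENG and ROBO4, the detected endothelial genes with a single window, are shown, and each held 3 copies, in capitals on either strand. Copies per window were not counted over all genes, and whether any of these sites is bound was not tested. Sequences are from RefSeq, 5′ to 3′ along the gene.
ENG (GRCh38.p14, chr9:127854659-127854908, minus strand): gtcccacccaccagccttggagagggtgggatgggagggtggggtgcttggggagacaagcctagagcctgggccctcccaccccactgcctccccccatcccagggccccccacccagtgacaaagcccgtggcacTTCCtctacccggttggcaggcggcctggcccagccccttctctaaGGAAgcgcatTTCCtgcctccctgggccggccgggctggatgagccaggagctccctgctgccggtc
ROBO4 (GRCh38.p14, chr11:124897866-124898115, minus strand): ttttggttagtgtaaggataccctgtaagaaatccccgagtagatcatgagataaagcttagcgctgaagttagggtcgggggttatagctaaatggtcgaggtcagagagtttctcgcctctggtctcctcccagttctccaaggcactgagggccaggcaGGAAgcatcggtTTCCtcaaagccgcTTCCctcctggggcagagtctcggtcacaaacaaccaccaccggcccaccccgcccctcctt

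Genes of the same lineages outside the members were taken from further lists. Of 19 measured transcription factors with roles in endothelium, 10 were at 6 or above in mock (52.6%), a share close to the 49.4% of all genes. The brightest were ETS1 at 13.37 ± 0.15 and ELK3 at 13.36 ± 0.20, both ETS family factors, KLF2, a factor induced by blood flow, at 10.78 ± 0.12, and HHEX, a homeobox factor of blood vessel and liver precursors, at 9.90 ± 0.10 (SD, n = 3). Low members, named after their values were seen, included the vascular factors SOX17 and SOX18, at 2.38 and 1.64. Of 34 surface and junction genes, 13 were at 6 or above (38.2%), a share below that of all genes. They were led by the caveolar protein CAV1 at 15.14 and the protein C receptor PROCR at 12.35. The sialomucin PODXL at 12.06 and the semaphorin and VEGF co-receptor NRP1 at 11.28 followed. Most of these are also expressed outside endothelium. CD34 and PLVAP, markers of vessel endothelium likewise named after their values were seen, were at 1.84 and 2.08.

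Further hepatocyte genes were mostly low. Of 11 measured hepatocyte transcription factors 2 were at 6 or above, CEBPB, a stress and acute phase factor, at 12.26 and GATA4 at 8.10. Of 29 secreted and metabolic genes 1 was at 6 or above. This was TDO2, the tryptophan dioxygenase of liver, at 10.07 ± 0.03 (SD, n = 3), followed by the urea cycle enzyme ASS1 at 5.58 and the cytochromes CYP1A2 and CYP2E1 at 4.24 and 3.48.

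Markers of other cell types were set beside these lists. Of 20 mesenchymal and fibroblast genes 13 were at 6 or above (65%, against 49.4% of all genes). The brightest were VIM at 15.70, SPARC at 15.20, FN1 at 13.61 and TAGLN at 11.63. Another 6 were under 4. Named after their values were seen, these were PDGFRB (2.96), DCN (2.89), PDGFRA (2.81), PRRX1 (2.69), COL1A2 (2.51) and FAP (1.87). Of 13 epithelial and biliary genes 7 were at 6 or above (53.8%), with KRT19 at 14.29, SOX9 at 12.84, SPP1 at 12.29 and KRT7 at 11.18. The epithelial cadherin CDH1, named after its value was seen, was at 2.38. Of 15 blood cell genes 1 was, the integrin ITGB2 at 6.82. CD14 followed at 5.24, and the leukocyte marker PTPRC and the lysozyme LYZ were at 3.18 and 2.97. The list of unrelated tissue genes had 4 of 28 at 6 or above, KRT10, MBP, SNAP25 and TNNI3, so it is not a pure background.

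**Figure D3:**
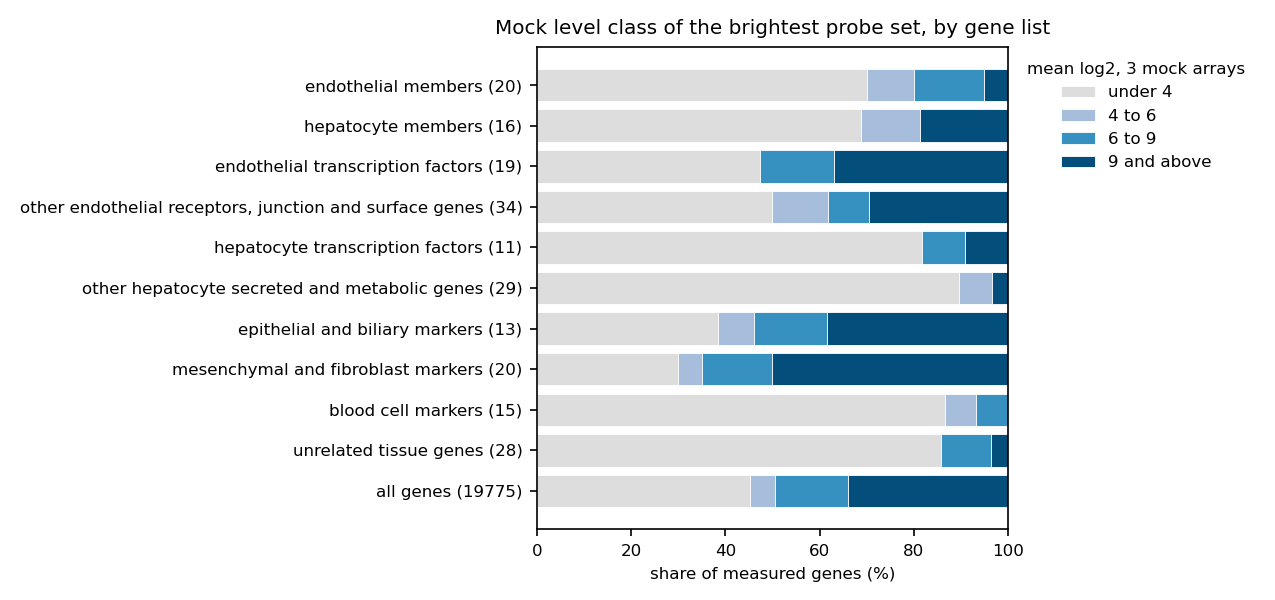
Share of measured genes (%) in 4 classes of mock level for each gene list, using the brightest probe set of each gene, with the number of measured genes in brackets. The endothelial and hepatocyte members are mostly in the class under 4, whereas 13 of 20 mesenchymal genes are at 6 or above, against 49.4% of all genes.

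No member gene passed the test between anti-miR-21 and mock, and most were too dim to be tested. The fit was limma over all 22408 probe sets at 4 or above, 2 groups of 3 arrays, with Benjamini-Hochberg adjustment over all of them and a threshold of 0.05. Of the 91 member probe sets, 15 entered this test, from 6 endothelial and 5 hepatocyte genes, and 0 passed, where 2.17% of all tested probe sets did. By gene, 0 of 11 passed, against 2.13% of 10848 genes. At an unadjusted p under 0.05, 2 of the 15 passed, ROBO4 and EGFL7, against 17.8% of all tested probe sets. The median log2 difference over genes, anti-miR-21 minus mock, was 0.028 for the endothelial and 0.038 for the hepatocyte genes, and -0.018 over all genes tested. Differences ran from -0.19 to 0.48.

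The largest difference was in ROBO4. Its log2 difference was 0.48 ± 0.131 (SE), a fold of 1.39, with a 95% interval of 0.16 to 0.79 (limma adjusted p = 0.131). It passed only without mock replicate 3, the mock array nearest the treated group. Without that array the difference was 0.63 and the adjusted p 0.0425, whereas over all other alternatives the adjusted p lay between 0.0928 and 0.335. EGFL7 had a difference of -0.19 ± 0.073 (SE), with a 95% interval of -0.37 to -0.02 (limma adjusted p = 0.247), and it stayed negative in all 13 alternatives with no call.

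The remaining members at 6 or above had smaller differences. The SERPINA1 probe sets differed by 0.13 and 0.10, with 95% intervals of -0.001 to 0.27 and -0.02 to 0.22 (limma adjusted p = 0.285 and 0.359). ENG differed by 0.16 and 0.13, with upper bounds of 0.38 and 0.35 (adjusted p = 0.409 and 0.507). The brightest FLI1 probe set differed by -0.05, with an interval of -0.26 to 0.16, and the other 2 tested by 0.01 and 0.08. KRT8 differed by 0.08 (interval -0.06 to 0.21) and KRT18 by 0.04 (interval -0.11 to 0.19). These intervals leave room for changes of the sizes given and do not show that the levels were equal. The 4 tested probe sets between 4 and 6, those of TEK, CLDN5, AFP and TF, had differences from -0.12 to 0.04.

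In 4 of the 15 tested probe sets (ROBO4, CLDN5 and both of SERPINA1) the arrays of the groups did not overlap, each time higher with anti-miR-21. Among all tested probe sets 24% did not overlap. The CLDN5 means differed by 0.02 log2 units, 4.10 against 4.12. These counts changed with the scaling. With arrays centred on their medians, none of the 15 was apart upwards and 1 was apart downwards (EGFL7), and with quantile normalization 2 were apart upwards (1 probe set each of ROBO4 and SERPINA1) and 1 downwards (EGFL7). Over all tested probe sets 11.4% were apart upwards and 12.6% downwards as deposited, 6.98% and 11.8% with median centring, and 11.0% and 12.6% with quantile normalization.

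**Figure D4:**
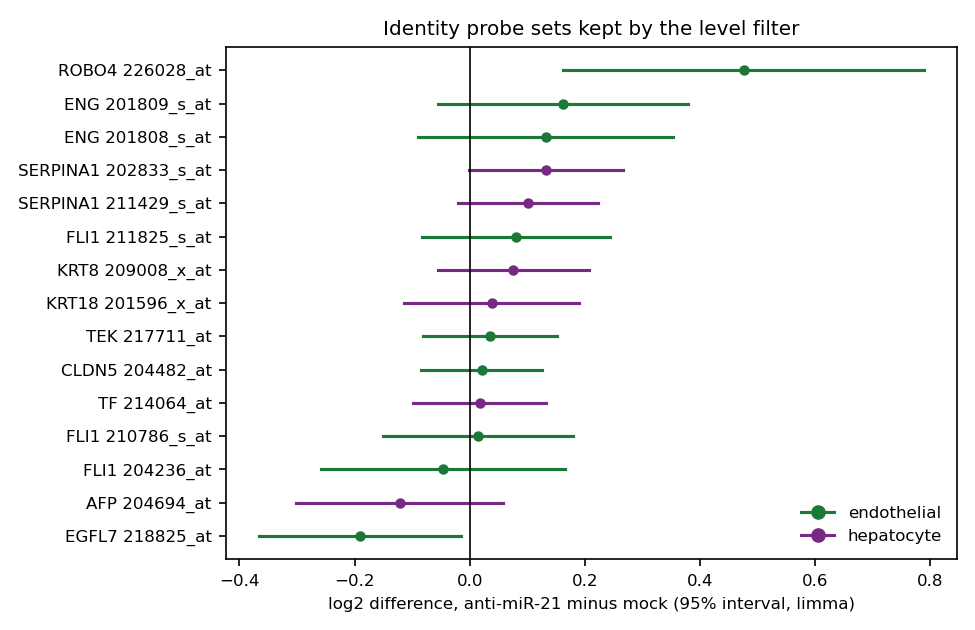
Log2 difference, anti-miR-21 minus mock, for the 15 member probe sets tested, with 95% intervals from limma (3 arrays against 3), endothelial genes in green and hepatocyte genes in purple. ROBO4 at 0.48 and EGFL7 at -0.19 have intervals that leave out 0, and neither passed after adjustment over 22408 probe sets.

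The 76 member probe sets below the filter moved together with the low end of each array. Their median was 2.34, 2.33 and 2.28 in the mock arrays and 2.28, 2.35 and 2.35 in the anti-miR-21 arrays. Over all 32205 probe sets below the filter it was 2.46, 2.44 and 2.39, then 2.40, 2.47 and 2.47. Mock replicate 3 was the lowest mock array in 71 of the 76 and in 89.8% of all low probe sets. The difference between the groups was positive in 72 of 76, with a median of 0.021, and positive in 91.8% of all low probe sets with the same median of 0.021. With median centring it was positive in 15 of 76 (median -0.017) and with quantile normalization in 43 (median 0.002), so its sign depended on the scaling. Over all low probe sets 20.9% were positive with median centring and 53.3% with quantile normalization. The groups did not overlap in 4 of the 76 (probe sets of FLI1, EMCN, LYVE1 and FGB, all higher with anti-miR-21), against 4.6% of all low probe sets. Fitted without the filter, none of the 76 was called, and the lowest adjusted p from limma was 0.762, for FGB.

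Among the 169 measured genes of the 8 further lists, 60 were tested and 1 was called on its brightest probe set, against 2.13% of all genes tested. This was ELF3, an epithelial ETS family factor, which read 6.08, 6.18 and 6.45 in mock and 7.08, 6.77 and 6.90 with anti-miR-21. It rose 1.60-fold (log2 difference 0.68 ± 0.118 SE, limma adjusted p = 0.0424). The other tested ELF3 probe set had 0.20 (adjusted p = 0.288). The call was not made without the filter, with median centring, with quantile normalization, with the replicate block or with any 1 array left out.

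Of 101 tested probe sets in these lists 3 passed, against 2.17% of all tested probe sets, and the other two were not the brightest of their genes. ICAM1, an adhesion molecule of activated endothelium, had a probe set that rose 1.64-fold, from 8.01 ± 0.01 (SD, n = 3) in mock to 8.47, 8.71 and 9.00 (limma adjusted p = 0.0438). Its brightest probe set had 0.39 (adjusted p = 0.0695) and the third 0.50 (adjusted p = 0.0528), and in all 3 the groups did not overlap. THBD, the endothelial anticoagulant receptor thrombomodulin, had a probe set that rose 1.33-fold, from 7.62, 7.40 and 7.49 to 7.82, 7.97 and 7.94 (limma adjusted p = 0.0468). Its brightest probe set had 0.36 (limma adjusted p = 0.157) and the third 0.22 (limma adjusted p = 0.396), and in all 3 the groups did not overlap. Without the filter both calls were lost (adjusted p = 0.0985 and 0.0809). With 1 array left out, ICAM1 passed only without anti-miR-21 replicate 1 and THBD only without mock replicate 1, and the adjusted p ranged up to 0.154 and 0.173. With the replicate number as a block neither passed (adjusted p = 0.0969 and 0.176), and THBD did not pass with the trend and robust setting (0.0553). ICAM1 passed with that setting (0.0376). Both passed with the filter at 6, with median centring and with quantile normalization. The limma adjusted p in these was 0.0266, 0.0197 and 0.0356 for ICAM1 and 0.0314, 0.0497 and 0.0303 for THBD.

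The brightest further endothelial and hepatocyte genes did not pass. ETS1 read 13.55, 13.34 and 13.24 in mock and 13.64, 13.83 and 13.81 with anti-miR-21, with no overlap (log2 difference 0.38, limma adjusted p = 0.0992). KLF2 had 0.37 and TDO2 0.24 (adjusted p = 0.0824 and 0.0718), again with no overlap. CEBPB, a factor of the acute phase response in liver, read 12.31, 12.22 and 12.27 in mock and 12.20, 12.56 and 12.75 with anti-miR-21, which overlap (log2 difference 0.24, adjusted p = 0.399 from limma). GATA4, a factor of early liver and heart, had -0.10 (adjusted p = 0.421), with the treated arrays below mock and no overlap, and NRP1 had 0.10 (adjusted p = 0.552). ELK3, HHEX, CAV1, PROCR and PODXL lay between -0.03 and 0.02. In 8 of the 27 tested endothelial-associated genes the arrays were apart upwards, and in 0 downwards. Of all 10848 genes tested, 1129 (10.4%) were apart upwards and 1639 downwards. The 8 were the factors ETS1, KLF2, SOX7, EPAS1 and FOXC2 and the surface genes ICAM1, THBD and NOTCH4. Of these, SOX7 (0.29, limma adjusted p = 0.0538), EPAS1, FOXC2 and NOTCH4 were named after their values were seen. With median centring 5 of the 27 were apart upwards and 3 downwards (5.71% of all genes upwards), and with quantile normalization 7 and 1 (10.1%). Over all tested probe sets, 11.8% were apart downwards with median centring and 12.6% with quantile normalization. The median difference was 0.130 over the 10 tested endothelial transcription factors and 0.005 over the 17 tested surface genes. It was 0.070 over the 2 hepatocyte factors, 0.123 over the 3 metabolic genes, -0.011 over 8 epithelial, -0.034 over 14 mesenchymal, 0.041 over 2 blood cell and -0.014 over 4 unrelated genes.

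**Figure D5:**
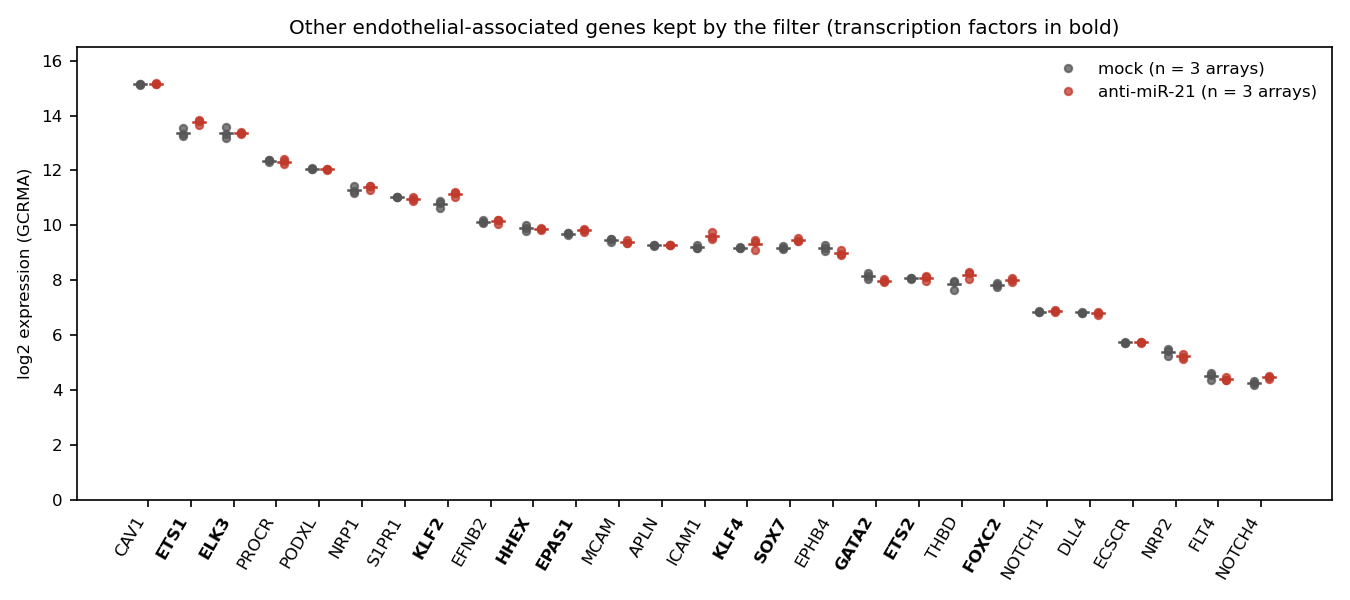
Log2 expression of the further endothelial-associated genes tested, brightest probe set each, ordered by mock mean, with transcription factors in bold. Points are single arrays, short bars are means of 3 arrays, grey is mock and red is anti-miR-21; all treated arrays lie above all mock arrays for ETS1, KLF2, SOX7, EPAS1, FOXC2, ICAM1, THBD and NOTCH4 with the values as deposited, and for 5 of these 8 with median centring and 7 with quantile normalization.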

How the data were processed

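The deposited log2 values were made by the authors with GCRMA, per the submitters' processing notes, and its version is not given in the sources used here. No genome build is named in the array files. Gene names came from the platform annotation, updated through Entrez identifiers against RefSeq (GRCh38.p14), where all 36 symbols matched and no symbol changed. No further normalization was applied. Testing covered probe sets with a mean of at least 4 over the 6 arrays and used limma (version 3.58.1, R version 4.3.3, lmFit then eBayes, no covariate, two-sided, Benjamini-Hochberg over all of them). A gene took the values of its brightest probe set. The fit was tested on simulated data with known changes. The number of arrays limits the precision.

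The members and the other gene lists were chosen with earlier results of these data known. All member genes were named, with every array's value for those at 6 or above in mock, any with a called probe set and the 4 probe sets with the smallest p (ALB and AFP were added after their values were seen). In other lists, called genes and up to 4 with the highest mock level were named. ICAM1 and THBD entered by a called probe set. Genes outside the rule are marked. Alternatives were other filters, scalings, variance models, averaging, a replicate block and leaving out each array. Some genes of the other lists are not reported here.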

Additional observations from a re-analysis of the deposited data

How the results depend on the processing

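No member gene was called under the other filters, both scalings, the trend and robust setting, averaging or the replicate block, and leaving out 1 array gave 0 to 1 endothelial genes (ROBO4, without mock replicate 3), 0 to 1 member probe sets and 0 hepatocyte genes. The number of hepatocyte genes at 4 or above in mock was 5, 3 with the level set at 5, and 4 to 5 with 1 mock array left out. For endothelial genes it was 6, 4 with the level set at 5, and 6 with any 1 mock array left out. Counted on the brightest probe set of each gene, the called genes of the further lists numbered 1 in the main setting. They numbered 0 with no filter, median centring, quantile normalization or any 1 array left out. Probe sets of ICAM1 and THBD that were not the brightest still passed with both scalings. They numbered 3 with the filter at 6 (ELF3, ICAM1 and, named after its values were seen, the vascular factor SOX7) and 4 with probe sets averaged (these and TDO2). Median centring moved the median difference of tested probe sets from -0.003 to -0.041. With the replicate number as a block, 0 members and 0 further genes were called, and 32 genes in all against 231. Same-numbered arrays did not deviate together (correlations -0.36, -0.27 and -0.002), so the numbers were not taken to pair the samples. Among the called probe sets of further genes, ELF3, ICAM1 and THBD each lost the call in the block (adjusted p = 0.121, 0.0969 and 0.176), ELF3 with median centring (0.0738) and quantile normalization (0.0526), and THBD with the trend and robust setting (0.0553), with the direction kept in every alternative. Of 91 member probe sets, 76 lay below the filter on low signal and were not tested.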
